A study of Mus musculus with 12 samples.

Results

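Cancer-associated fibroblasts were examined in 6 mouse mammary tumours by single-cell RNA sequencing. The cells were those that the authors annotated as fibroblasts in the Total libraries, which hold the dissociated tumour without selection for leukocytes. This rule gave 1021 of the 60657 cells of the 6 Total libraries. After 5 of them had been removed as likely doublets (droplets holding more than 1 cell), 1016 fibroblasts remained: 135 from Clone E, 52 from EM1, 226 from EM2, 84 from EM3, 261 from M and 258 from the parental tumour.

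All tumours were grown from 4T1, a BALB/c mouse mammary carcinoma line used as a model of triple-negative breast cancer. Clones E, EM1, EM2, EM3 and M are each descended from 1 cell of that line, and the parental tumour came from the uncloned line. The cells were placed in the mammary fat pad of female BALB/c hosts whose age is given as 9 to 11 weeks, with no drug or genetic change named in any group. The clones together cover states from epithelial to mesenchymal, but the labels do not say which clone has which state, and the study asks how the state goes with the immune infiltrate. Every group is 1 tumour, so a clone cannot be told apart from the single animal and library that stands for it, and no test between tumours was possible. All intervals are 95% intervals that cover counting error only.

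Fibroblasts of a tumour lay down and remodel its extracellular matrix, the mesh of collagens, glycoproteins and proteoglycans between cells. They are commonly divided into matrix-producing cells with contractile genes, driven largely by transforming growth factor beta, and inflammatory cells that secrete interleukin-6 family cytokines, chemokines and acute-phase proteins. Pericytes, the mural cells that wrap small vessels, share many of their genes, including Pdgfrb and collagens, and are often annotated with them. Adventitial fibroblasts, which express Pi16, Dpt and Clec3b, surround vessels in healthy tissue.

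The fibroblasts held between 340910 UMIs (unique molecular identifiers, by which a captured RNA molecule is counted once) in EM1 and 3937060 in the parental tumour. Their median depth was 5349 UMIs per cell for E, 5567.5 for EM1, 11553.5 for EM2, 8052.5 for EM3, 12308 for M and 11986 for the parental tumour. E and EM3 had 1434 sequences of the droplet part of the cell barcode in common, 16.7% of the smaller library, and EM1 and EM2 had 906, or 13.5%. The other 13 pairs of libraries shared 1.15% to 1.91%, and no 2 libraries shared one among their fibroblasts. The labels do not say which libraries were run together. Expression is given below as CPM, the count of a gene's UMIs over the fibroblasts of a tumour, scaled to the same total of UMIs in every tumour.

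The label was checked against 5 fibroblast markers, Col1a1 and Col3a1 (the main fibrillar collagens), Dcn (the proteoglycan decorin), Pdgfrb (a receptor for platelet-derived growth factor) and Postn (periostin). Col1a1 measured 27854 CPM for E, 64448 for EM1, 67129 for EM2, 41533 for EM3, 56609 for M and 42043 for the parental tumour. The highest value in any tumour was 1412 CPM in endothelial cells and 434 CPM in T and NK cells. Tumour cells carried some of the markers too. A Col1a1 UMI was found in 15.97% of them in EM1, 25.1% in EM3 and 40.9% to 49.5% in the other tumours. A Dcn UMI was found in 2.00% to 15.4% of tumour cells, most in M. A Pdgfrb UMI was found in 22.9% in EM1, 21.5% in M and 0.505% to 1.56% in the other tumours. At least 4 of the 5 markers were detected in 827 of the 1016 cells (81.4%), and 9 cells had none of them. A Col1a1 UMI was found in 94.8% to 99.1% of fibroblasts, but also in 9.95% to 46.1% of T and NK cells, at a median depth of 1098 to 2089.5 UMIs per cell. How much of this was free RNA was not tested. A separate clustering of all cells gave 2 clusters rich in the 5 markers, which held 1005 cells, and 1000 of these carried the authors' fibroblast annotation.

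RNA of other cell types was present in the class, and that of macrophages, granulocytes, and T and NK cells was highest in E. The summed level of 8 macrophage markers was 2634 CPM for E, 355 for EM1, 715 for EM2, 2267 for EM3, 1427 for M and 358 for the parental tumour, against 11962 to 23205 CPM in annotated macrophages. The 6 granulocyte markers summed to 2295 CPM in E and 61.6 to 1148 CPM in the others. The 6 T and NK cell markers summed to 898 CPM in E and 88.2 to 315 CPM elsewhere. The 8 tumour cell markers were highest in the parental tumour, at 2003 CPM, followed by E at 933 CPM and the other 4 at 307 to 647 CPM. The 8 endothelial markers summed to 38.2 to 123 CPM, with Cldn5 at 0 in E, EM1, EM2 and EM3. Counts and named genes below were also computed without the cells of clusters led by genes of pericytes, tumour cells, macrophages, T and NK cells or adipocytes. This left 671 cells (66.0%), called the core fibroblasts: 88 from E, 37 from EM1, 168 from EM2, 52 from EM3, 153 from M and 173 from the parental tumour. The shallow cluster 4, described below, gave 48 of these core cells for E, 9 for EM1, 16 for EM2, 17 for EM3, 6 for M and 40 for the parental tumour. Core values of E thus come mostly from another cluster than those of M, and the part of this in the core ratios was not tested.

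Fibroblasts made up a small share of every tumour, from 0.787% to 2.46% of cells. The share was 1.24% (95% interval 1.04 to 1.47) for E, 0.787% (95% interval 0.588 to 1.03) for EM1, 2.32% (95% interval 2.03 to 2.64) for EM2, 0.99% (95% interval 0.79 to 1.22) for EM3, 1.99% (95% interval 1.76 to 2.24) for M and 2.46% (95% interval 2.17 to 2.77) for the parental tumour. With all annotated fibroblasts the tumours thus fell into a high set of EM2, M and parental and a low set of E, EM1 and EM3, with no overlap of intervals between the sets. The split was less clear for core fibroblasts. They were 1.72% of cells for EM2 and 1.65% for the parental tumour, but 1.17% for M, which was nearer to E (0.809%). EM1 and EM3 were at 0.560% and 0.613%. M exceeded E by 0.75 percentage points (95% interval 0.426 to 1.07), whereas EM3 minus E was -0.251 points (-0.553 to 0.0565), an interval that includes 0. EM1 and EM2, a pair with many shared barcodes, lay in different sets, with EM2 higher by 1.53 points (1.15 to 1.91).

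The share of tumour cells differed between tumours, so fibroblasts were also counted among the remaining cells. On that base the share was 1.34% (95% interval 1.12 to 1.58) for E, 1.39% (95% interval 1.04 to 1.82) for EM1, 3.51% (95% interval 3.07 to 3.99) for EM2, 1.28% (95% interval 1.03 to 1.59) for EM3, 3.09% (95% interval 2.73 to 3.48) for M and 5.6% (95% interval 4.95 to 6.3) for the parental tumour. The same 3 tumours were high, and the parental tumour stood above EM2 and M. Among cells annotated as fibroblast or endothelial, fibroblasts were 52.0% in EM1 and 82.9% in M, the lowest and the highest. The 3 high tumours also had the deepest fibroblasts, with medians of 11553.5 to 12308 UMIs against 5349 to 8052.5 in the others. Over all cells the median depth had another order, with EM3 (7711) above EM2 (6094) and M (6079). Tissue digestion can release fibroblasts incompletely, and the parts of digestion and depth in these shares were not tested.

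**Figure D1:**
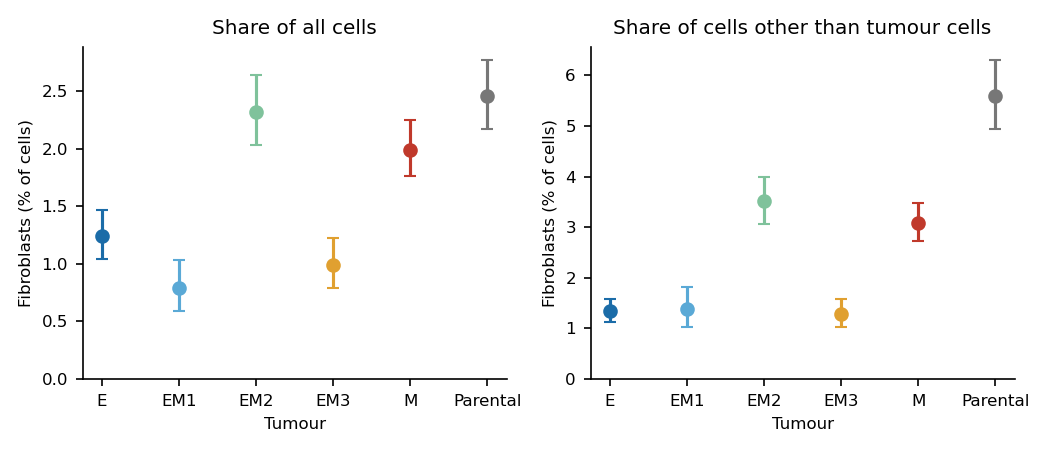
Annotated fibroblasts in each tumour as a percent of all cells (left) and of cells other than tumour cells (right), 1 tumour per point, with exact 95% intervals of the count. EM2, M and the parental tumour lie above E, EM1 and EM3 in both panels.

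Clustering of the 1016 fibroblasts gave 10 clusters, here described by their leading genes, which are a description of the clustering and not a test. Cluster 1 (185 cells) was led by Serpinb2, an inhibitor of plasminogen activators, and Nos2, an inducible nitric oxide synthase. It was high in Lox, the collagen-crosslinking lysyl oxidase (3416 CPM), and in Timp1, an inhibitor of metalloproteinases (5439 CPM). Cluster 2 (171 cells) was led by Ecrg4, Lrrc15, a membrane protein known from matrix-producing tumour fibroblasts, and Col7a1, the collagen of anchoring fibrils. It had the highest Col1a1 (83841 CPM), Postn (5978 CPM) and Lrrc15 (1245 CPM) of all clusters. Neither cluster had 3 raised markers of any type's list, so both were left without a type name.

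Cluster 3 (145 cells) was pericyte-like, with all 10 pericyte markers raised: Rgs5, a regulator of G-protein signalling typical of pericytes, measured 7619 CPM there and at most 747 CPM in any other cluster. Smooth muscle markers were raised there too: Myh11, smooth muscle myosin, at 547 CPM, Actg2 at 310, Cnn1 at 103, Lmod1 at 86.9, Des at 774 and Synpo2 at 492 CPM. Pericytes and smooth muscle cells were thus not told apart in this cluster, which is called pericyte-like below. It had the lowest Col3a1 of the 8 clusters with more than 22 cells (4194 CPM). Il6, the cytokine interleukin-6, was highest in this cluster at 4277 CPM. Cluster 5 (107 cells) was led by adventitial genes, 6 of which were among its 10 leading genes (Clec3b, Sema3c, Cd34, Ly6c1, Pi16 and Efemp1). Pi16 measured 3370.1 CPM, Dpt 2998 CPM and Clec3b 1116 CPM. It had 7 of 10 inflammatory fibroblast markers raised, but Ly6c1, Dpt, Clec3b and Pi16 among them are also members of the adventitial list. The rest were Cxcl12, C3 and Has1, and Il6 (1437 CPM) was not raised. The cluster was left without a type name because its leading genes are adventitial. Cluster 8 (72 cells) was led by Mme, a membrane metallopeptidase, and Col13a1, a transmembrane collagen. It had 3 of 10 matrix fibroblast markers raised, none of them among its leading genes, and the highest Dcn (3066 CPM), Pdgfra (632 CPM) and Eln, elastin (5242 CPM).

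Cluster 4 (136 cells) was shallow, with a median of 2108 UMIs per cell, had the highest median share of mitochondrial UMIs at 1.2% against 0.174% to 0.701% in the others, and stayed unnamed, because the markers of another cell type that were raised in it were found in at most 12 of its cells. Its Col1a1 was 71997 CPM and Tnc, the matrix glycoprotein tenascin C, was 11443 CPM, and 97 of the 136 cells had UMIs of 3 or more label markers. The remaining 4 clusters were led by genes of other cell types: tumour cells in cluster 6 (83 cells, with keratins Krt8 and Krt18), macrophages in cluster 7 (80 cells, C1qa), T and NK cells in cluster 9 (22 cells, Gzmb and Nkg7) and adipocytes in cluster 10 (15 cells, Adipoq and Cidec). These clusters differed in how much fibroblast RNA they carried. Clusters 6 and 7 still held fibroblast RNA, with Col1a1 at 24818 and 38305 CPM, as did cluster 9 at 8492 CPM. Cluster 6 had a median of 24841 UMIs per cell, the highest of the 10. Whether its cells are doublets that the caller missed was not tested.

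The makeup of the fibroblasts differed between tumours. In E, the shallow cluster 4 was the largest, at 35.6% (95% interval 27.5 to 44.2), against 2.3% (95% interval 0.848 to 4.94) in M and 20.2% (95% interval 12.3 to 30.4) in EM3. The Lrrc15-led cluster 2 was largest in EM2, at 31.4% (95% interval 25.4 to 37.9), and smallest in E, at 3.7% (95% interval 1.21 to 8.43). Cluster 1 held 8.15% of the cells for E, 11.5% for EM1, 14.2% for EM2, 17.9% for EM3, 23% for M and 23.6% for the parental tumour. Pericyte-like cells were 7.41% for E, 25% for EM1, 13.3% for EM2, 21.4% for EM3, 19.9% for M and 8.53% for the parental tumour. M exceeded E in this state by 12.5 percentage points (95% interval 5.07 to 19.1) and EM3 exceeded E by 14.0 points (3.98 to 25).

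The Pi16 and Clec3b cluster 5 was lowest in the parental tumour, at 4.26% (95% interval 2.15 to 7.5), and between 7.66% and 17.3% in the clones. The Mme-led cluster 8 held 14.9% (95% interval 10.8 to 19.9) of the fibroblasts of M and 3.7% to 4.76% elsewhere. Cluster 9, led by T and NK genes, held 20 cells of E (14.8%), 2 of EM3 and none of the other tumours, and cluster 6, led by tumour cell genes, was most frequent in the parental tumour (17.8%). The clusters differ in depth as well as in genes, and whether lower depth placed cells of E in cluster 4 was not tested.

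**Figure D2:**
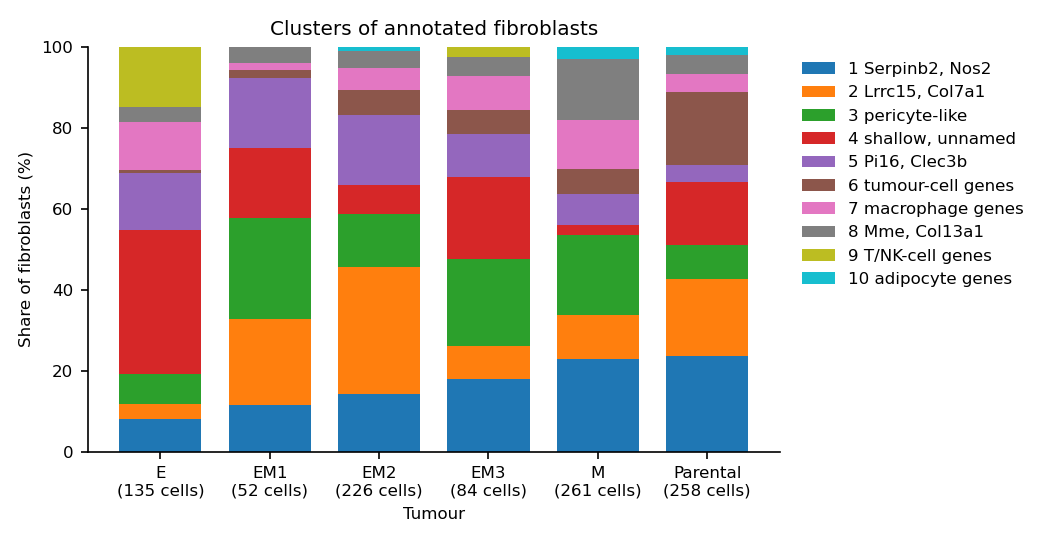
Share of the annotated fibroblasts of each tumour in 10 clusters, as stacked bars that sum to 100%, with the number of cells below each bar. Cluster 4 is the largest block in E, cluster 2 in EM2, and cluster 9 is seen in E and EM3 only.

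Genes were next compared between M and E and between EM3 and E. By a score of mesenchymal minus epithelial genes, given at the end, the tumour cells of E were lowest, those of EM3 highest and those of M next. For each gene the CPM plus 10 of one tumour was divided by that of the other, and a log2 ratio of at least 1 in size was called higher or lower. Of 6804 genes with a mean of at least 20 CPM over the 6 tumours, 104 were higher in M than in E (1.53%) and 367 were lower (5.39%). In EM3 against E, 104 were higher (1.53%) and 264 lower (3.88%). The median log2 ratio of all these genes was -0.13 for M over E and -0.07 for EM3 over E. With tumours scaled so that the median ratio over genes is near 0, 147 genes were higher and 258 lower in M, and 121 higher and 221 lower in EM3. Both comparisons use the same fibroblasts of E, so their results are not independent. Among the core fibroblasts, 100 genes of 6224 were higher (1.61%) and 410 lower (6.59%) in M than in E, and 123 were higher (1.98%) and 346 lower (5.56%) in EM3 than in E.

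Matrix genes were lowest in the fibroblasts of E. Of 23 glycoprotein and proteoglycan genes with a mean of at least 20 CPM, E was the lowest of the 6 tumours for 14, while E was lowest for 15.3% of all 6804 genes. EM2 was the highest for 15 of the 23, against 5.41% of all genes. Likewise E was lowest for 5 of 6 fibrillar collagens and 6 of 12 other collagens. Among core fibroblasts E was lowest for 13 of 23, 5 of 7 and 5 of 12, against 14.5% of all genes, and EM2 was highest for 7 of 23, against 6.76%. The fibroblasts of E also had the lowest median depth and the highest median share of mitochondrial UMIs, at 0.728% against 0.211% to 0.398% in the other 5 tumours. With each cell thinned at random to 1000 UMIs, M over E log2 ratios of most called matrix genes fell. Ratios no longer past 1 were those of Lrrc15 (1.43 to 0.62), Cthrc1 (1.39 to 0.63), Col12a1 (1.02 to 0.81) and Sparc (1.12 to 0.82). So were those of Col1a1 (1.02 to 0.89), Col3a1 (1.11 to 0.93) and Tnc (1.25 to 0.96). Those of Postn (1.68 to 1.55), Col6a2, Lum, Eln and Spon1 fell and stayed past 1. Ratios rose for Col6a1 (1.35 to 1.49), Col5a2 (1.14 to 1.18), Aspn (1.42 to 1.49) and slightly for Col6a3. The part of the mitochondrial share in the matrix values was not tested.

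Postn, which binds collagen and integrins, measured 1028 CPM for E, 3030.1 for EM1, 4138 for EM2, 3348 for EM3, 3325 for M and 3311 for the parental tumour. E lay far below the other 5 tumours, which were close together. The log2 ratio was 1.68 (95% interval 1.58 to 1.79) for M over E and 1.69 (95% interval 1.57 to 1.82) for EM3 over E, and 1.52 and 1.62 in the core fibroblasts. Within cluster 1, Postn was 1699 CPM in E and 2969.6 to 4084 CPM in EM2, EM3, M and the parental tumour, so E was also lowest among cells of 1 cluster. Within the shallow cluster 4 it was 957 CPM in E and 3286 to 5170.1 CPM in EM2, EM3 and the parental tumour. Pericyte-like cells were the exception, with 1403 CPM in E and 1145 in EM3.

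Lrrc15 was 113 CPM for E, 414 for EM1, 864 for EM2, 336 for EM3, 323 for M and 492 for the parental tumour, with E lowest and EM2 highest. The log2 ratio was 1.43 (95% interval 1.13 to 1.75) in M over E and 1.49 (95% interval 1.15 to 1.85) in EM3 over E. After thinning to 1000 UMIs per cell these were 0.62 and 0.93, neither past 1. Twist2, a transcription factor of mesenchymal development, measured 170.4 CPM for E, 813 for EM1, 614 for EM2, 375 for EM3, 526 for M and 489 for the parental tumour. Its log2 ratio was 1.57 (95% interval 1.32 to 1.84) in M over E and 1.10 (95% interval 0.79 to 1.40) in EM3 over E, the latter 0.85 in core fibroblasts and so no longer past 1. Tnc reached 2050.2 CPM for E, 5254 for EM1, 5891 for EM2, 6376 for EM3, 4894 for M and 7519 for the parental tumour, again lowest in E, with log2 ratios of 1.25 (95% interval 1.17 to 1.33) and 1.63 (95% interval 1.55 to 1.72).

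The main fibrillar collagens were also lowest in E over all fibroblasts, with smaller differences. Among tumours with at least 10 cells, Col1a1 of E was lowest in clusters 1, 3, 4, 5 and 7, but overlapped EM2 in cluster 5. Col3a1 of E was lowest in clusters 4 and 7 only. In cluster 1 it was 40405 CPM in E and 26392 in EM3, and in cluster 5 39194.5 in E and 37198 in EM2. In cluster 3 it was 4995 CPM in E and 2592 to 4698 in EM1, EM2, EM3 and M. Col1a1 in M over E had a log2 ratio of 1.02, and 0.81 in the core fibroblasts, while EM3 over E was 0.58. Col3a1 was 21898 CPM for E, 50597 for EM1, 46163 for EM2, 27805 for EM3, 47128 for M and 30304 for the parental tumour, a log2 ratio of 1.11 in M over E that was 0.97 in the core fibroblasts. Of 6 fibrillar collagen genes, Col1a1, Col3a1 and Col5a2 were called higher in M and none in EM3, against 1.53% of all genes in each, and none of 7 was called in either comparison among core fibroblasts. Col6a1, a chain of the beaded-filament collagen VI, measured 1078 CPM for E, 3353 for EM1, 3532 for EM2, 2293 for EM3, 2756 for M and 2413 for the parental tumour. Col6a1, Col6a2 and Col6a3 were called higher in both comparisons, Col12a1 in M alone and Col15a1 in EM3 alone. Among core fibroblasts Col6a1 and Col6a2 kept a log2 ratio of at least 1 in M (1.07 and 1.16) and not in EM3 (0.68 and 0.82). Col6a3 (0.87 in M and 0.79 in EM3), Col12a1 (0.83 in M) and Col15a1 (0.56 in EM3) were no longer past 1 there, while Col18a1 was called higher in M. Col11a1, a collagen often raised in tumour stroma, was low throughout, from 10.4 CPM in the parental tumour to 42.4 CPM in EM2.

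Of the 23 glycoprotein and proteoglycan genes, 9 were called higher in M than in E (Postn, Tnc, Sparc, Lum, Eln, Cthrc1, Spon1, Aspn and Lrrc15), against 1.53% of all genes, and 1 lower (Thbs1), against 5.39%. The median log2 ratio over all 24 genes of the list was 0.82, against -0.13 for all genes. In EM3, 4 were higher (Postn, Tnc, Lum and Lrrc15) and 1 lower (Fbn2), against 1.53% and 3.88% of all genes. The list median was 0.58, against -0.07 for all genes. In the core, 6 were higher and none lower in M, against 1.61% and 6.59% of all genes. There Sparc (0.91), Lum (0.93), Eln (0.44) and Spon1 (0.99) were no longer past 1 and Mfap2 was. In the core of EM3, 4 were higher and 1 lower, against 1.98% and 5.56%, with Lum (0.95) no longer called and Aspn called. Thbs1, thrombospondin 1, went against the list at 4000.2 CPM for E, 3807 for EM1, 2281 for EM2, 3626 for EM3, 1826 for M and 1887 for the parental tumour. Macrophages of these tumours also expressed it, at a median of 3755 CPM, and its M over E ratio was -0.86 in core fibroblasts. Eln differed more widely, at 1194 CPM for E, 1167 for EM1, 1829.9 for EM2, 2244 for EM3, 2505 for M and 519.9 for the parental tumour, with the parental tumour lowest and M highest, and 1 cell held 40.0% of the Eln UMIs of E.

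**Figure D3:**
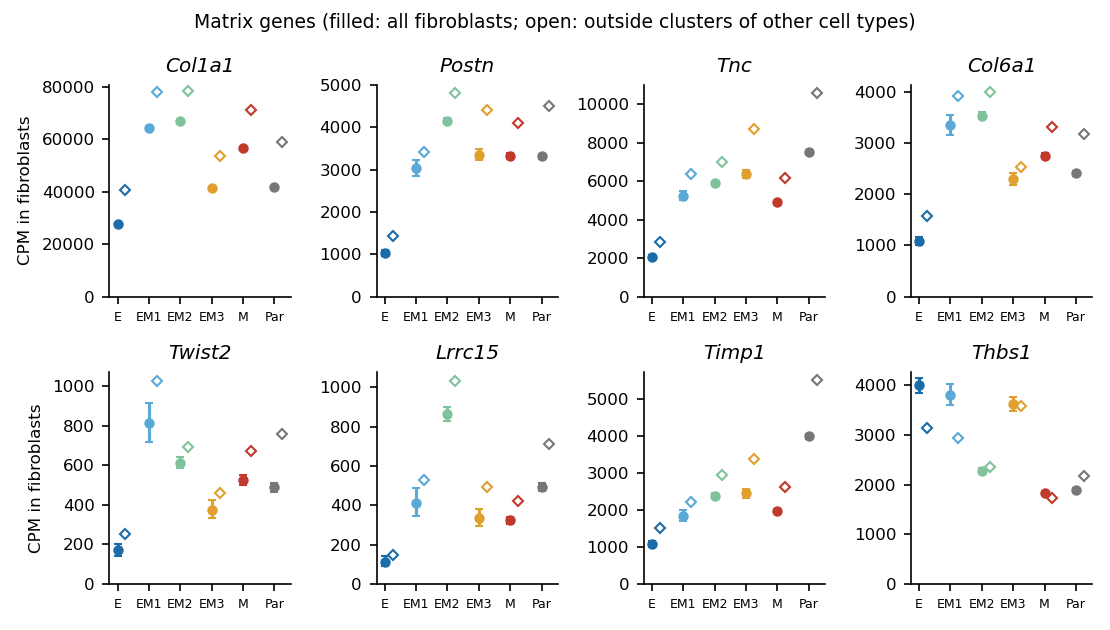
CPM of 8 matrix-related genes in the fibroblasts of each tumour, with filled circles for all fibroblasts and exact 95% Poisson intervals, and open diamonds for core fibroblasts. E has the lowest circle for Col1a1, Postn, Tnc, Col6a1, Twist2, Lrrc15 and Timp1, and the highest for Thbs1.

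Of the enzymes that process and crosslink collagen, E was lowest for 8 of 13 with all fibroblasts, against 15.3% of all genes. In the core E was lowest for 5 of 13, against 14.5%. None of the 13 was called in either comparison, and their median log2 ratio was 0.53 in M over E and 0.27 in EM3 over E. Lox measured 898 CPM for E, 1364 for EM1, 1449 for EM2, 1267 for EM3, 1804 for M and 1807 for the parental tumour. Among proteases and their inhibitors, Timp1 was 1077 CPM for E, 1839 for EM1, 2385 for EM2, 2445 for EM3, 1979.6 for M and 3982 for the parental tumour, lowest in E and highest in the parental tumour. Its log2 ratio was 1.18 in EM3 over E and 0.87 in M over E. Ctsk, the collagen-degrading cathepsin K, was 414 CPM for E, 854 for EM1, 1079 for EM2, 981 for EM3, 813 for M and 684 for the parental tumour and was called higher in EM3 (1.23). Mmp11, a stromal metalloproteinase, was higher in both comparisons (1.32 and 1.08), from 43 CPM in E to 122 CPM in M, with core ratios of 0.57 and 0.94, neither past 1. Plau, the urokinase plasminogen activator, was highest in E at 1211 CPM and lower in EM3 at 570.2 CPM (-1.07). In all, 1 of 20 genes was higher and 1 lower in M, and 3 were higher and 2 lower in EM3. Of all genes, 1.53% were higher and 5.39% lower in M, near the list's share of lower genes, and 1.53% and 3.88% in EM3. In the core, 2 were higher (Mmp10 and Mmp13) and 2 lower (Timp3 and Plau) in M, against 1.61% and 6.59% of all genes. In EM3, 4 were higher there (Mmp10, Mmp13, Timp1 and Ctsk) and 2 lower (Mmp9 and Plau), against 1.98% and 5.56%.

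Mmp13, an interstitial collagenase, gave different ratios with and without the removed clusters. It measured 249 CPM for E, 522 for EM1, 303 for EM2, 410.5 for EM3, 199.7 for M and 174 for the parental tumour in all fibroblasts, and 44.7 CPM for E, 635 for EM1, 228 for EM2, 650.01 for EM3, 223 for M and 166 for the parental tumour in core fibroblasts. The log2 ratio in EM3 over E was 0.70 with all cells and 3.59 with core fibroblasts, and for M over E -0.31 and 2.09. Its RNA was concentrated in few cells: 1 cell held 49.4% of the Mmp13 UMIs in E, 72.5% in EM1 and 49.1% in EM3.

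In the transforming growth factor beta and bone morphogenetic protein pathway, E was highest for 8 of 20 genes, near the 33.7% of all genes, and for 9 of 19 in the core, against 38.4%. The few genes called in either comparison were all lower than in E. The ligand Tgfb2 measured 469.6 CPM for E, 293 for EM1, 242 for EM2, 212 for EM3, 216 for M and 205 for the parental tumour, and E lay above the other 5 tumours without overlap of intervals. Its log2 ratio was -1.08 (95% interval -1.27 to -0.90) in M over E and -1.11 (95% interval -1.39 to -0.84) in EM3 over E, and without the highest cell of each tumour the first was -0.99. The antagonist Grem1, gremlin 1, was 132 CPM for E, 85.1 for EM1, 77.9 for EM2, 15.4 for EM3, 35.9 for M and 26.4 for the parental tumour, with log2 ratios of -1.63 and -2.48, and -1.24 and -2.20 once the cell with most Grem1 UMIs was left out of each tumour. Tgfbi, a matrix protein induced by the pathway, was 358 CPM for E, 26.4 for EM1, 91.3 for EM2, 75.7 for EM3, 60.9 for M and 62.5 for the parental tumour. Macrophages also express Tgfbi, at a median of 934 CPM, and in core fibroblasts it was 158 CPM in E and 13.8 to 79.5 CPM elsewhere. The list counted 0 higher and 3 lower of 20 in M, and 0 higher and 4 lower in EM3, where Id3, a target of bone morphogenetic proteins, was the addition, against 5.39% and 3.88% of all genes. In the core, 5 of 19 were lower in each comparison, against 6.59% and 5.56%. Tgfb1, the receptors Tgfbr1 and Tgfbr2 and the activin subunit Inhba were not called in either comparison. Inhba ranged from 1548 CPM in M to 3543 CPM in the parental tumour. Ccn2, a matricellular target of the pathway, stood at 1481 CPM in EM1 and 385 to 621 CPM in the others.

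Inflammatory genes, among them Saa3 and Il11, were among the genes with the highest ratios in both comparisons. Saa3, an acute-phase serum amyloid protein, measured 504 CPM for E, 6236 for EM1, 1814 for EM2, 2324 for EM3, 8837 for M and 1998 for the parental tumour, a 17.5-fold range between E and M. M and EM1 formed a high pair, EM2, EM3 and the parental tumour lay in between, and E was lowest, with no overlap of intervals between these levels. The log2 ratio was 4.11 (95% interval 3.96 to 4.26) in M over E, the highest of all 6804 genes, and 2.18 (95% interval 2.02 to 2.35) in EM3 over E. Core fibroblasts gave 4.08 and 2.32. In EM1 and EM3 a single cell held 42.2% and 41.8% of the Saa3 UMIs, against 6.47% in M, where 129 of 261 cells had one. Without the highest cell of each tumour the ratios were 4.35 and 1.75.

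The level of Saa3 also depended on the cluster. Pericyte-like cells had little, 0 to 289 CPM over the 6 tumours. Within cluster 1, Saa3 was 572 CPM for E, 1554 for EM2, 1401 for EM3, 13238 for M and 4745 for the parental tumour, where at least 10 cells were available. Within the Pi16 and Clec3b cluster 5, it was 1140.2 CPM in E, 2177 in EM2, 6340.4 in M and 10021 in the parental tumour, which there exceeded M on 11 cells. In the Lrrc15-led cluster 2, it was 6344 CPM in EM1 and 6815 in M, but 1600.1 in EM2 and 464 in the parental tumour. In the Mme-led cluster 8 it was 10675 CPM in EM2, 8834 in M and 675 in the parental tumour. The tumours thus kept no single order across clusters. E lay below the intervals of the other tumours with at least 10 cells in clusters 1, 5 and 7, but overlapped the parental tumour in cluster 4 and EM1, EM2, M and the parental tumour in cluster 3.

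Il11, interleukin-11, a cytokine of the interleukin-6 family that acts on fibroblasts, was 34.4 CPM for E, 402 for EM1, 93 for EM2, 314 for EM3, 331 for M and 588 for the parental tumour. E was lowest and EM2 next, with the parental tumour highest. The log2 ratio was 2.94 (95% interval 2.47 to 3.42) in M over E and 2.87 (95% interval 2.37 to 3.37) in EM3 over E, and 4.14 and 4.17 in core fibroblasts, where E held 15.8 CPM. Of the E fibroblasts, 14 of 135 had an Il11 UMI, and 153 of 258 of those of the parental tumour. Tumour cells also expressed it, at a median of 129.9 CPM over the 6 tumours, with 182 CPM in M, 167 in EM3 and 51.7 in E. The part of tumour cell RNA in the fibroblast ratios was not tested. Lif, leukaemia inhibitory factor of the same family, was 445 CPM for E, 1358 for EM1, 844 for EM2, 1026 for EM3, 1049 for M and 879 for the parental tumour, with log2 ratios of 1.22 (95% interval 1.05 to 1.39) and 1.19 (95% interval 1.00 to 1.38). Il6 itself ranged from 1144 CPM in E to 2249.9 in EM1 and was not called (0.21 and 0.67).

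Il33, an alarmin of the interleukin-1 family, was 97.4 CPM for E, 194 for EM1, 312 for EM2, 478 for EM3, 241 for M and 364 for the parental tumour, lowest in E and highest in EM3. Its log2 ratio in EM3 over E was 2.18 (95% interval 1.83 to 2.54). Cxcl14, a chemokine of stromal cells, reached 1523 CPM for E, 2001 for EM1, 5300.3 for EM2, 4297 for EM3, 3241 for M and 4515 for the parental tumour, and in core fibroblasts 2537 CPM for E, 2478 for EM1, 6263 for EM2, 6383 for EM3, 4298 for M and 5619 for the parental tumour, where E and EM1 were similar and low. Cxcl12, the ligand of Cxcr4, measured 229 CPM for E, 813 for EM1, 427 for EM2, 562 for EM3, 424 for M and 252 for the parental tumour. Its log2 ratio in EM3 over E was 1.26, and 0.35 among fibroblasts without a UMI of the leukocyte gene Ptprc. Cxcl5, a neutrophil-attracting ligand of Cxcr2, had another order, at 796 CPM for E, 1502 for EM1, 620.1 for EM2, 315 for EM3, 579.5 for M and 516 for the parental tumour, with EM3 lowest. The ligand Cxcl1 was high in all tumours, from 3416 CPM in the parental tumour to 5506 in EM1, as was the monocyte attractant Ccl2, from 1648 to 2925 CPM.

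Over the 25 inflammatory genes, 5 were called higher in M (Lif, Il11, Il33, Cxcl14 and Saa3), against 1.53% of all genes, and 2 lower (Csf1 and Csf3), against 5.39%. In EM3, 7 were higher (Lif, Il11, Il33, Cxcl12, Cxcl14, Ccl11 and Saa3) and 3 lower (Cxcl5, Ccl8 and Csf3), against 1.53% and 3.88%. In the core the counts were the same, against 1.61% and 6.59% of all genes in M and 1.98% and 5.56% in EM3. There Cxcl14 (0.76) was no longer called in M while Cxcl12 (1.13) was, and Csf1 took the place of Ccl8 among the lower genes of EM3. Without the highest cell of each tumour, the M over E ratio of Csf1 was -0.99 and the EM3 over E ratio of Ccl8 -0.67. The median log2 ratio was 0.21 in M and 0.20 in EM3. Ccl8, a chemokine also made by macrophages, had a ratio of -1.05 with all fibroblasts, 0.69 in the core and 0.16 among fibroblasts without a Ptprc UMI. Csf1, the macrophage growth factor, was 723 CPM for E, 777 for EM1, 378 for EM2, 458 for EM3, 351 for M and 257 for the parental tumour, highest in EM1 and E. Csf3, the granulocyte colony-stimulating factor, was highest in the parental tumour at 866 CPM, but 141 CPM in its core fibroblasts. Tumour cells expressed Csf3 at a median of 2228 CPM.

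**Figure D4:**
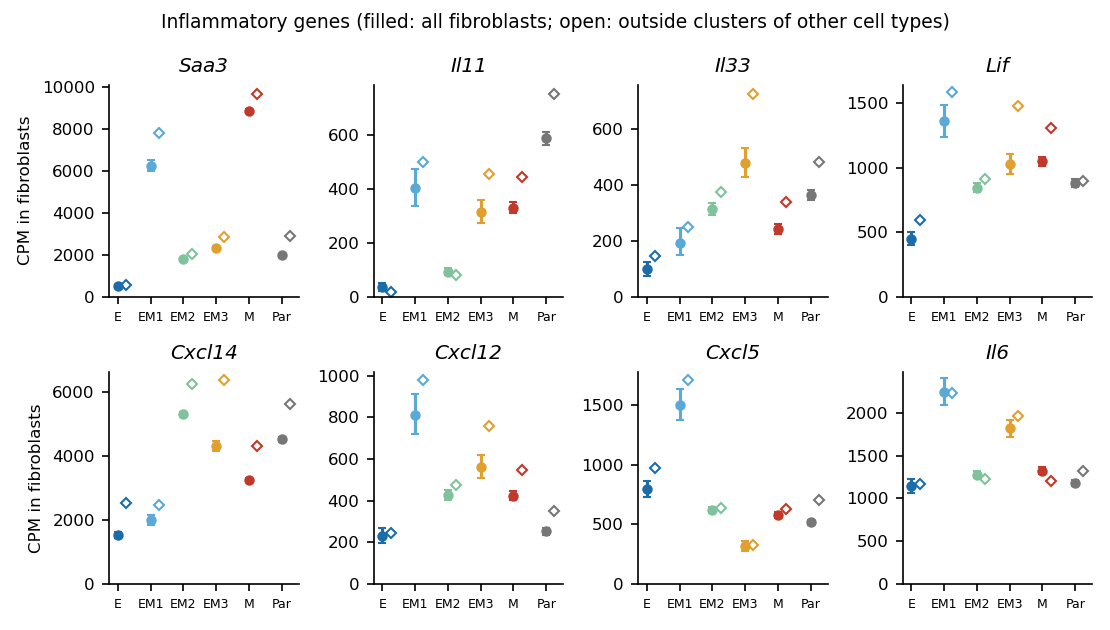
CPM of 8 inflammatory genes in the fibroblasts of each tumour, with filled circles for all fibroblasts and exact 95% Poisson intervals, and open diamonds for core fibroblasts. Saa3 is highest in M and EM1, Il11 in the parental tumour, and the circles of E are lowest for Saa3, Il11, Il33, Lif, Cxcl14, Cxcl12 and Il6. Among the diamonds, EM1 is below E for Cxcl14.

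All 12 contractile genes had a log2 ratio above 0 in EM3 over E with all fibroblasts, with a median of 0.74. In the core 10 of the 12 did, with a median of 0.22. Acta2, smooth muscle actin, the usual marker of myofibroblasts, measured 216 CPM for E, 1003 for EM1, 498 for EM2, 552 for EM3, 284 for M and 349 for the parental tumour. Tagln, the actin-binding transgelin, was 786 CPM for E, 1291 for EM1, 1173 for EM2, 1839.5 for EM3, 486 for M and 871 for the parental tumour, highest in EM3 and lowest in M. Of the 11 with a mean of at least 20 CPM, 4 were called higher in EM3 than in E (Acta2, Tagln, Cnn1 and Actg2), against 1.53% of all genes. The median of all genes was -0.07. In M, 1 was higher (Itga11) and 2 were lower (Cnn1 and Myh11), with a median of -0.29, against 1.53% and 5.39% of all genes. In the core of M, none of 9 was higher and 3 were lower (Tagln, Myl9 and Actg2), against 1.61% and 6.59% of all genes. Itga11 was there at 0.87 and Myh11 at -0.27. Without the highest cell of each tumour, Myh11 was at -0.77 in M and Tagln at 0.89 in EM3. Pericyte-like cells had the highest levels, with Acta2 at 1132 to 5043 CPM. In core fibroblasts Acta2 was 200.04 CPM for E, 41.3 for EM1, 506 for EM2, 288 for EM3, 184 for M and 467 for the parental tumour, and Tagln was 982 CPM for E, 56.3 for EM1, 1331 for EM2, 1824 for EM3, 411 for M and 1160.4 for the parental tumour. The EM3 over E ratio of Acta2 was then 0.50 and that of Tagln 0.89, so that only Actg2 of this list stayed past 1 (1.61). EM1 moved from the highest Acta2 with all fibroblasts to the lowest in the core, where 37 cells were left. The M over E ratio of Tagln was -0.68 with all fibroblasts and -1.24 in the core.

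Pericyte genes followed the share of pericyte-like cells only in part. Rgs5 measured 717 CPM for E, 936 for EM1, 521 for EM2, 684 for EM3, 1012 for M and 187 for the parental tumour, lowest in the parental tumour and highest in M. Within the pericyte-like cluster it was 9246 CPM for E, 4950.3 for EM1, 8306 for EM2, 3617 for EM3, 9335 for M and 6299 for the parental tumour. EM3, with the second largest share of such cells, therefore had the lowest level in them. Of 10 pericyte genes, Cox4i2 alone was called in M, as higher, against 1.53% of all genes, and none in EM3. In the core only 5 were measured well enough to be compared. Of these, Ndufa4l2 was higher and Cspg4 and Des lower in M, against 1.61% and 6.59% of all genes, and none was called in EM3. The parental tumour was lowest of the 6 for 6 of these 10 genes, against 10.4% of all genes.

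Adventitial genes were also lowest in the parental tumour, for 8 of 12 genes with all fibroblasts and 9 of 12 in the core, against 10.4% and 8.48% of all genes. Clec3b, tetranectin, measured 189 CPM for E, 282 for EM1, 204 for EM2, 234 for EM3, 151 for M and 23.6 for the parental tumour. Dpt, dermatopontin, was 576 CPM for E, 1009 for EM1, 856 for EM2, 769 for EM3, 777 for M and 265 for the parental tumour. For both genes the parental value lay below the intervals of all 5 clones. In M, Pcolce2, Sema3c and Efemp1 were called lower than in E, against 5.39% of all genes, and no gene of the 12 was called in EM3. Without the highest cell of each tumour, the ratio of Sema3c went from -1.24 to -0.37 and that of Pcolce2 from -1.17 to -0.97. In the core, 4 were lower in M, against 6.59% of all genes, Ly6c1 being the addition.

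Genes of antigen presentation were highest in E, for 11 of 12 genes, against 33.7% of all genes, and for 10 of 11 in the core, against 38.4%. Cd74, the invariant chain of major histocompatibility complex (MHC) class II, measured 2428 CPM for E, 487 for EM1, 642 for EM2, 1596 for EM3, 413 for M and 107 for the parental tumour, and the class II chain H2-Aa 1271 CPM for E, 211 for EM1, 361 for EM2, 929 for EM3, 190.4 for M and 54.4 for the parental tumour. The summed macrophage markers given above had the same highest tumours, E and EM3, and macrophages held Cd74 at a median of 13502 CPM. In core fibroblasts Cd74 was 621 CPM for E, 131 for EM1, 102 for EM2, 331 for EM3, 39.9 for M and 43.9 for the parental tumour, while the 8 macrophage markers summed to 532 CPM for E, 128 for EM1, 117 for EM2, 672 for EM3, 143 for M and 193 for the parental tumour. Of the core clusters, cluster 4 had the highest Cd74, at 519 CPM against 70.6 to 119 CPM, and the highest C1qa, a macrophage marker, at 195 CPM against 31.0 to 54.5 CPM. Cluster 4 gave 48 of the 88 core cells of E. In the core E was highest for Cd74 and EM3 for macrophage markers. E was also highest there for 3 general leukocyte markers (171 CPM against 26.3 to 96.7), granulocyte markers (663 against 71.3 to 478) and T and NK cell markers (653 against 94.1 to 288). Most of the last sum was Cd3e, at 563 CPM in E and 72.2 to 233 CPM in the others. Of 12 genes, 11 were called lower in M than in E, against 5.39% of all genes, and none in EM3. In the core, 10 of 11 were lower in M and 5 of 11 in EM3, against 6.59% and 5.56% of all genes. The part of leukocyte RNA in the class II values was not tested.

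Class I genes, which most cells express, showed the same direction with smaller ratios. H2-K1 was 597 CPM for E, 390.1 for EM1, 318 for EM2, 389 for EM3, 237 for M and 252 for the parental tumour, with a log2 ratio of -1.29 (95% interval -1.46 to -1.12) in M over E and -1.37 in the core. Tap1, a peptide transporter that loads class I, was 110.2 CPM for E, 46.9 for EM1, 59.3 for EM2, 60.2 for EM3, 26.5 for M and 18.5 for the parental tumour (-1.72 in M over E). Nlrc5, the class I transactivator, turned to a log2 ratio of 0.25 when every cell was thinned to 1000 UMIs. Interferon-induced genes were also called lower: 5 of 11 in M, against 5.39% of all genes, and 6 of 11 in EM3, against 3.88%. In EM3, 1 was higher (Cxcl10), against 1.53%, with a ratio of 1.05 that became 0.56 without the highest cell of each tumour. In the core, 6 of 11 were lower in M, against 6.59% of all genes, and 8 of 11 in EM3, against 5.56%, with none higher. Isg15, a ubiquitin-like interferon-induced protein, measured 169 CPM for E, 44 for EM1, 45.8 for EM2, 22.4 for EM3, 69.1 for M and 30.7 for the parental tumour, a log2 ratio of -2.46 (95% interval -3.03 to -1.89) in EM3 over E. Cxcl9, a chemokine induced by interferon gamma, was 100.2 CPM for E, 220.0 for EM1, 126 for EM2, 42 for EM3, 16.3 for M and 1.02 for the parental tumour, so that EM1 rather than E was highest and the parental tumour held 4 UMIs. In EM1 a single cell held 50.7% of its Cxcl9 UMIs, and its core value was 11.3 CPM.

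**Figure D5:**
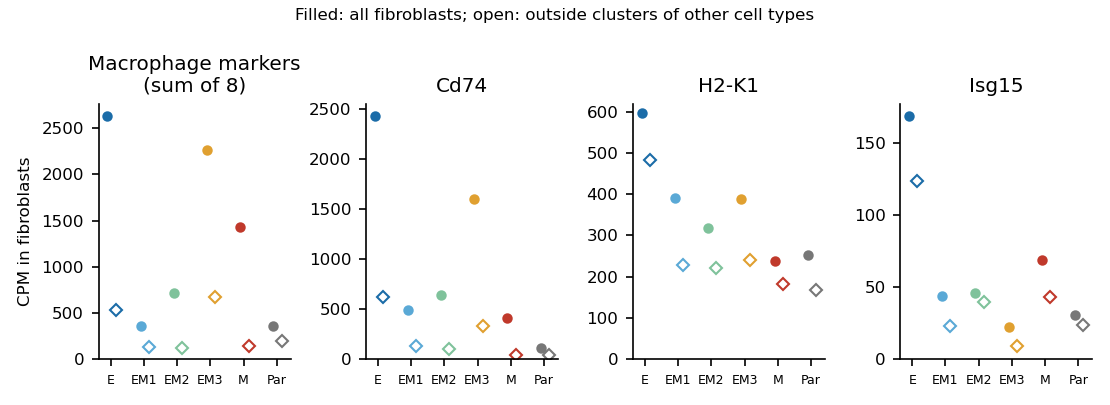
Summed CPM of 8 macrophage markers, and CPM of Cd74, H2-K1 and Isg15, in the fibroblasts of each tumour, with filled circles for all fibroblasts and open diamonds for core fibroblasts. E has the highest circle in all 4 panels, and its diamonds for Cd74, H2-K1 and Isg15 also lie above those of the other tumours.

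Among growth factors, Fgf7, which acts on epithelium, was 105 CPM for E, 255 for EM1, 229.8 for EM2, 272 for EM3, 229.9 for M and 199.6 for the parental tumour, lowest in E. It was called higher in both comparisons, with log2 ratios of 1.07 (95% interval 0.75 to 1.40) and 1.30 (95% interval 0.93 to 1.67). After thinning to 1000 UMIs per cell its ratios were 0.41 and 0.68, neither past 1. Igfbp3, which binds insulin-like growth factors, was lower in M (370.5 CPM) than in E (763 CPM), and its ratio of -1.02 became -0.40 without the highest cell of each tumour. Vegfa, the main endothelial growth factor, stayed between 843 CPM in EM2 and 1262 in EM3. Of 19 growth factor genes, these were the only ones called: 1 higher and 1 lower in M, and 1 higher in EM3. Of all genes, 1.53% were higher and 5.39% lower in M, and 1.53% higher in EM3, so that single calls among 19 genes are not a result about the list. In the core, 2 were higher (Fgf7 and Hgf) and 4 lower (Igfbp3, Igfbp4, Pdgfa and Areg) in M, against 1.61% and 6.59% of all genes. In EM3, 3 were higher there (Fgf7, Hgf and Wnt5a) and 2 lower (Igfbp5 and Pdgfc), against 1.98% and 5.56%. Areg, the epidermal growth factor receptor ligand amphiregulin, was 458 CPM in the parental tumour and 159 in its core fibroblasts, with tumour cells at a median of 780.3 CPM.

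Glycolysis and hypoxia genes gave few calls. None of 13 was called in M, where 1.53% of all genes were higher and 5.39% lower. Egln3, a prolyl hydroxylase induced by hypoxia, was called lower in EM3 (21 CPM) than in E (115 CPM). Of all genes 3.88% were lower in EM3, so this single call is not a result about the list. In the core, Adm, the vasodilator adrenomedullin, was called higher and Egln3 lower in both comparisons, of 11 genes. Of all genes, 1.61% were higher and 6.59% lower there in M, and 1.98% and 5.56% in EM3. Slc2a1, the glucose transporter Glut1, ranged from 348 to 483 CPM. Division genes were low: Mki67 was 22.9 CPM for E, 8.8 for EM1, 21.7 for EM2, 39.2 for EM3, 9.96 for M and 42.4 for the parental tumour, and the highest values were in EM3 and the parental tumour. Only 4 of the 12 division genes reached a mean of 20 CPM. Of these Top2a alone was called, as lower in M, against 5.39% of all genes, with a ratio that turned to 0.34 after thinning.

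Beyond the lists, the highest ratios in M over E after Saa3 and Il11 were those of Megf6, Nrep, Cfd, Irx1, Tslp, Pi15, Lpl and Spon2, with log2 ratios of 1.90 to 2.73. Irx1, a homeobox transcription factor, measured 35.8 CPM for E, 138 for EM1, 147 for EM2, 212 for EM3, 198 for M and 86.9 for the parental tumour, and Lpl, lipoprotein lipase, 83 CPM for E, 422 for EM1, 160.2 for EM2, 149.9 for EM3, 349.9 for M and 149.9 for the parental tumour. E was lowest for both, and their core ratios were 3.55 and 2.41. The ratio of Cfd, the adipocyte gene adipsin, was 2.44 and became -0.21 in core fibroblasts. That of Tslp, an epithelial-derived cytokine, was 2.15 and became 0.87. Tslp measured 59.7 CPM in the fibroblasts of M, 628 CPM in its tumour cells and 88.3 CPM in those of E. The 10 lowest ratios included 5 T and NK cell genes (Gzmb, Il2rb, Pdcd1, Nkg7 and Trac) and the tumour cell gene Cldn4. The others were Thbs4, Aldh1a2, Il10 and Clu.

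Some of these extremes came from single cells. Thbs4, thrombospondin 4, measured 531 CPM for E, 17.6 for EM1, 13.8 for EM2, 311 for EM3, 11.2 for M and 87.1 for the parental tumour, and 1 of the 135 cells of E held 69.3% of its UMIs. Leaving out the highest cell of each tumour changed its M over E ratio from -4.68 to -3.46. For Il10, an anti-inflammatory cytokine, 1 cell held 64.7% of the UMIs of E, found in 9 cells, and for Clu, the chaperone clusterin, 44.2%. In EM3 over E the highest ratio was that of Fgf23, a phosphate-regulating hormone, with 72 UMIs from 3 cells of EM3. This ratio was 3.28, and -0.29 among fibroblasts without a Ptprc UMI. The next highest ratios were those of Il11, Igfbp2, Irx1, Il33, Saa3, Sema7a, Actg2, a feature listed as deprecated, and Gdf10. All 83 Igfbp2 UMIs of EM3 came from 1 cell, and its ratio of 2.46 became -0.78 without the highest cells. Sema7a, a membrane-anchored semaphorin, had UMIs in 42 of 84 cells of EM3 and measured 75.9 CPM for E, 258 for EM1, 425 for EM2, 331 for EM3, 235 for M and 365 for the parental tumour, with a ratio of 1.99 (95% interval 1.59 to 2.39). Tumour cells had similar Sema7a levels, 319 CPM in EM3 and 73.4 CPM in E, and the part of tumour cell RNA in this ratio was not tested. The lowest ratios of EM3 over E were those of Mmp12, Cldn4, Hp, Il10, Reg1, Reg3g, Epcam, Igkc, Clu and Gzmb.

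The 10 genes with the widest range of log2(CPM plus 10) over the 6 tumours were Arg1, Hp, S100a9, Cd14, Mmp12, Thbs4, Ctss, H2-Eb1, Reg3g and Cxcl9. Most are genes of macrophages or granulocytes: Arg1, the arginine-degrading enzyme of myeloid cells, was 588 CPM for E, 2.93 for EM1, 65.5 for EM2, 329 for EM3, 60.9 for M and 73.4 for the parental tumour, and Cd14, a lipopolysaccharide co-receptor, 2152 CPM for E, 46.9 for EM1, 264 for EM2, 959.7 for EM3, 413 for M and 204 for the parental tumour. In core fibroblasts the 10 were Hp, Thbs4, Il11, Tagln, Clu, Reg3g, Il10, Mgp, Aldh1a2 and Saa3, of which 3 (Hp, Thbs4 and Reg3g) are in the first list.

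The fibroblast share was finally set against how epithelial or mesenchymal each tumour's cancer cells were. The score took the mean log2(CPM plus 10) of 12 mesenchymal genes in annotated tumour cells and subtracted the mean over 13 epithelial genes. It was -1.78 for E, 0.93 for the parental tumour, 1.44 for EM1, 1.90 for EM2, 2.74 for M and 3.32 for EM3. Across the 6 tumours Pearson's r between the score and the fibroblast share of all cells was 0.064 (exact permutation test, two-sided, p = 0.922, adjusted p = 0.992), and Spearman's rho was -0.20 (exact permutation p = 0.714, adjusted p = 0.714). For the share among cells other than tumour cells, r was 0.073 (exact permutation p = 0.992, adjusted p = 0.992) and rho was -0.26 (exact permutation p = 0.658, adjusted p = 0.714). These 2 relations were the family over which p-values were adjusted by the Benjamini-Hochberg method. With E and EM3 left out, which had the most extreme scores, r was 0.025 and -0.37. With 6 tumours, these values do not show that share and state are unrelated. No correlation within a pair of libraries with many shared barcodes could be computed, since each pair holds 2 tumours.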

How the data were processed

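The deposited tables hold whole-number UMI counts per gene and cell, filtered by the authors before deposit with limits not given in the sources used here. Cell Ranger and mm10 are named, per the submitters' processing notes, with no version. The cell annotation, the percent of mitochondrial UMIs and the same value as a fraction are the authors' own, per the file headers, and the summed counts of each cell equalled the UMI total listed there. The 6 Total libraries were used, and the 6 CD45 libraries were not used here. The protocol in the labels names both a fixed-RNA kit and a 3′ kit, so the chemistry is not settled.

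Doublets were called per library by a rebuilt form of the Scrublet method (simulated doublets, 2 per cell, expected rate 6%) with 1 score limit for all libraries, the median of their own limits, which removed 1318 of 60657 cells. Variable genes came from scanpy 1.11.5. Fibroblasts were clustered on 2000 variable genes and 20 principal components (15 neighbours, Leiden resolution 0.5 with leidenalg 0.10.2). A cluster could carry a type name when at least 3 markers of that type measured 50 CPM or more and at least 2 times the level in the other clusters together. Clusters 4, 5 and 8 met this but were left unnamed: in cluster 4 such markers lay in few cells, cluster 5 was led by adventitial genes, and in cluster 8 none was a leading gene. The all-cell clustering used resolution 1, and its fibroblast clusters were those with at least 10% of the highest summed label-marker level, a limit set after the clusters were seen.

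Counts were summed per tumour and scaled to CPM. With 1 tumour per group there were no replicates, so ratios carry no p-value. Shares have exact Clopper-Pearson intervals and CPM values exact Poisson intervals at 95%, and intervals of ratios and of differences follow from them. The ratio script was tested on simulated data.

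The genes described are the members of the lists. Beyond these they are the 10 highest and 10 lowest ratios of each comparison among genes with a mean of at least 20 CPM, and the 10 widest ranges over tumours. The members, lists and comparisons were chosen with earlier results of these data known, so no count over a list is independent support. The core fibroblasts were defined after the clusters were seen. Genes of overlapping or near-identical sequence were not separated further. Some single-gene results are not reported here.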

Additional observations from a re-analysis of the deposited data

How the results depend on the processing

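No paired analysis was possible because each group is 1 tumour. Fibroblast shares moved with the denominator by construction. Of cells not annotated as tumour they were 1.39% (EM1), 3.51% (EM2), 1.28% (EM3), 3.09% (M) and 5.60% (parental), and E moved by less than its interval. Of fibroblasts plus endothelial cells they were 66.5% (E), 52.0% (EM1), 60.6% (EM2), 69.4% (EM3), 82.9% (M) and 72.5% (parental). The core fibroblasts, an alternative chosen after seeing the data, made up 0.809% (E), 0.560% (EM1), 1.72% (EM2), 0.613% (EM3), 1.17% (M) and 1.65% (parental) of cells. Keeping doublets, a minimum of 650 genes per cell and rebuilt clusters left every share within its interval. M minus E was 1.75 points of cells other than tumour cells and 16.4 points of fibroblasts plus endothelial cells, and EM3 minus E was 2.92 points on the last base (95% interval -8.18 to 13.6).

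For M over E, a pseudocount of 1 called 172 genes higher, thinning every cell to 1000 UMIs called 509 higher and 721 lower, a mean of 50 CPM left 193 lower, and no filter gave 671 lower. For EM3 over E, a pseudocount of 1 called 178 higher and 417 lower, thinning 693 higher and 962 lower, a mean of 50 CPM left 109 lower, and no filter gave 589 lower. More or fewer genes are tested under the filters, and thinning leaves far fewer UMIs per gene. Of the 78 genes named and called in M over E, 57 were still past the threshold in the core fibroblasts, 54 without cells with a Ptprc UMI, 58 after thinning, 72 without the highest cell and 72 with scaling by the median ratio over genes. Of the 61 in EM3 over E these counts were 46, 48, 44, 56 and 58.

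Ratios reversed for Nlrc5 (0.25) and Top2a (0.34) in M over E and Krt18 (0.12) in EM3 over E after thinning. In the core, Cfd (-0.21) reversed in M over E, as did Ccl8 (0.69), Cxcl10 (-0.32) and Igfbp2 (-1.75) in EM3 over E. Without cells with a Ptprc UMI, Ccl8 (0.16) and Fgf23 (-0.29) reversed in EM3 over E. Igfbp2 also reversed outside the pericyte-like cluster (-1.25) and without the highest cell (-0.78), which held all its UMIs in EM3. For the other genes the cause was not tested. At resolution 0.3 the share of cells in clusters meeting the inflammatory marker rule was 22.2% (E), 31.0% (EM2), 28.6% (EM3), 29.5% (M) and 27.9% (parental), among 8 clusters instead of 10, and the cause was not tested. The correlation of score and share among cells other than tumour cells turned to r = -0.37 without E and EM3. Depth limits E, EM1 and EM3 most, and intervals cover counting error only.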

Other observations

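Cd3e, a chain of the T cell receptor complex, was far more abundant in fibroblasts than its partner chain Cd3d. It measured 523 CPM for E, 211 for EM1, 62.4 for EM2, 184 for EM3, 164 for M and 128 for the parental tumour in annotated fibroblasts, while Cd3d measured 30.1 CPM for E, 5.87 for EM1, 3.44 for EM2, 9.81 for EM3, 0.603 for M and 2.29 for the parental tumour. In core fibroblasts Cd3e was 563 CPM for E, 233 for EM1, 72.2 for EM2, 229 for EM3, 212 for M and 185 for the parental tumour, so it did not leave with the T and NK gene cluster. In T and NK cells of E, Cd3e was 1358 CPM and Cd3d 618 CPM, and in endothelial cells of E they were 61.2 and 34 CPM. The summed T and NK cell markers given for fibroblasts include Cd3e.

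The 15 cells of the adipocyte gene cluster came from M (8 cells), the parental tumour (5) and EM2 (2). They had Hp, the haemoglobin-binding haptoglobin, at 31139.7 CPM and Scd1, a fatty acid desaturase, at 10163 CPM. Of these cells, 9 had a Col1a1 UMI and 7 an Adipoq UMI. Skeletal muscle markers summed to 31.2 to 242 CPM over the tumours, and B cell markers to 2.93 to 22.6 CPM, highest in M. The muscle list shares Des with the pericyte markers, and Des measured 774 CPM in the pericyte-like cluster. Of its other genes, Acta1, Ckm and Myh4 measured at most 6.56 CPM in any cluster and Tnnt3 at most 10.95 CPM. The muscle sums thus do not show skeletal muscle RNA.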
